A study of Mus musculus with 4 samples.

Results

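Flt3, Kit, the GM-CSF and IL-3 receptor chains, the interferon receptor chains Ifnar1 and Ifngr1, and the STATs that act downstream of them were examined in splenic emergency progenitors (EPs) of mice given Flt3 ligand. The 10 genes (Flt3, Kit, Csf2ra, Csf2rb, Csf2rb2, Ifnar1, Ifngr1, Stat3, Stat5a and Stat5b) were picked by name, for their role in cytokine signalling, from the 40213 gene symbols of the count files, by a rule that uses no threshold on a measured value. EPs are CD11c+CD117+ spleen cells that expand under Flt3L, and those sequenced here were CD24+. The WT group holds 2 libraries from TopBP1 fl/fl littermates, and the cKO group holds 2 libraries from TopBP1 fl/fl mice that also carry CD11c-cre, which removes TopBP1 in cells using the CD11c promoter. Mice were aged 7 to 10 weeks, every mouse received 10 μg Flt3L-Ig intraperitoneally on day 0 and again on day 3, and spleens were sorted on day 9. The comparison asks whether EPs labelled cKO differ from WT in mRNA of the receptors through which Flt3L and related cytokines act.

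FLT3 and KIT are receptor tyrosine kinases, for Flt3 ligand and stem cell factor, and FLT3 signalling is the main drive for dendritic cell output from progenitors. The GM-CSF receptor pairs a ligand-binding α chain, encoded by Csf2ra, with the common β chain encoded by Csf2rb, and mice carry a second β chain gene, Csf2rb2, whose product serves IL-3. These receptors signal through JAK2 and STAT5, FLT3 acts in dendritic cell progenitors largely through STAT3, and IFNAR1 and IFNGR1 are chains of the receptors for type I interferons and for IFN-γ.

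Library totals lay between 14561583 and 15193831 estimated counts. Topbp1, the targeted gene, was read at 77.9 and 75.6 CPM (read counts scaled to library size) in WT replicates 1 and 2, 50.7 CPM in cKO replicate 1 and 82.7 CPM in cKO replicate 2. The level was thus lower than in WT in the first library labelled cKO and not in the second, and the transcript total does not separate reads of the deleted part from the rest. In what follows cKO therefore means the libraries labelled so. All 14 genes of a list for the labelled cell type were detected, among them Itgax (CD11c) at 614 to 690 CPM and Cd24a at 756 to 972 CPM. Of 15 neutrophil markers, 6 were higher in cKO at a false discovery rate (FDR) under 0.05, and their summed level was 1593 and 1311 CPM in WT against 3371 and 2536 CPM in cKO. Summed markers of mast cells and basophils were 34.6 and 30.2 CPM in WT against 91.6 and 51.2 CPM in cKO. Of the 10 listed, all 7 that were tested had a log2 fold change above 0. The mast cell genes Tpsb2 and Mrgprb1 were at 0 in every library. Cell cycle genes summed to 745 and 717 CPM in WT, 954 CPM in cKO replicate 1 and 2520 CPM in cKO replicate 2. The part of these differences in the results that follow was not tested.

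No member passed FDR < 0.05 in the edgeR quasi-likelihood test over 12393 genes, where 0.105% of all genes did (0.0807% higher and 0.0242% lower in cKO). At an unadjusted p < 0.05 the count was 2 of 10, Kit and Ifngr1, both lower in cKO, against a background of 10.7% of genes in either direction, 6.95% higher and 3.77% lower. By other tools, the DESeq2 Wald test placed 1 member under FDR 0.05, Ifngr1 (FDR 0.0455), where it placed 137 of all 12393 genes. The edgeR likelihood ratio test and limma-voom placed 0 members, and 234 and 13 of all genes. In 5 of 10 members the WT and cKO libraries did not overlap, 4 with cKO below and 1 with cKO above, beside 43.6% of all genes tested. The log2 fold change of cKO relative to WT was above 0 in 3 members and below 0 in 7, beside 6345 and 6048 of all 12393 genes tested. Its median was −0.057, beside 0.0084 over all genes tested. The standard errors (SEs) of these fold changes ran from 0.11 to 0.15. The labels do not say that the libraries of a group came from separate mice, so the spread between them may be technical. An exact permutation test of 2 against 2 libraries cannot give a p below 0.333, and none was used.

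**Figure D1:**
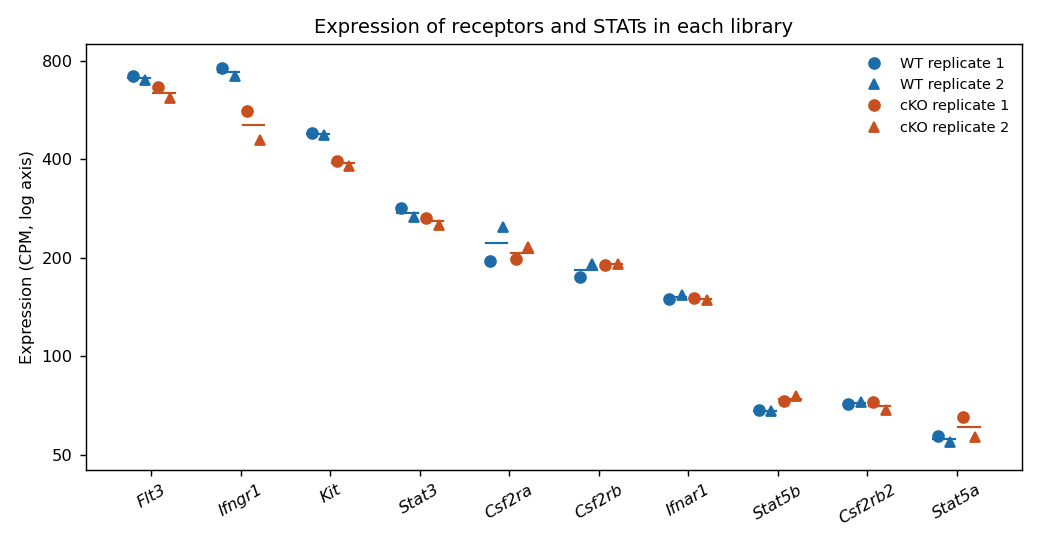
Expression of each gene in the 4 libraries, in CPM on a log axis (WT in blue, cKO in orange, circles for replicate 1 and triangles for replicate 2, with a line at each group's mean, n = 2). The largest gap between groups is that of Ifngr1, 738 CPM in WT against 510 CPM in cKO, while the Flt3 points of both groups lie between 614 and 717 CPM.

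Flt3 (chr5:147330741-147400489, minus strand, GRCm38) had the highest CPM of the 10 genes in cKO. WT replicates 1 and 2 held 10148 and 10563 counts and the cKO replicates 10096 and 9495, or 717 and 699 CPM in WT against 663 and 614 CPM in cKO. Both cKO values lay below both WT values, with a gap smaller than the distance between the 2 cKO libraries. The means were 708 ± 12.9 CPM (SD, n = 2) and 638 ± 34.4 CPM (SD, n = 2). This gave a log2 fold change of −0.15 with an SE of 0.13, and the edgeR quasi-likelihood test gave an FDR of 0.714. Its 95% interval ran from −0.44 to 0.15, a fold of 0.735 to 1.11. A fall in Flt3 mRNA to less than 0.735 of the WT level, as averaged over all sorted cells, thus lay outside the interval. In bulk RNA, fewer cells expressing a gene and less RNA per cell cannot be told apart. Transcript NM_010229.2 held from 89.0% to 92.4% of the Flt3 counts in every library.

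By the distance between centred log2 CPM profiles over the 4 libraries, the genes most like Flt3 among 6726 with a mean of at least 20 CPM were Smad4, Golph3 and Plxnd1. Their root mean square distances were 0.0062, 0.0078 and 0.010, and 430 genes lay within 0.05, so that many genes share so flat a profile over 4 libraries.

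Kit (chr5:75574916-75656722, plus strand, GRCm38) encodes CD117, which is itself one of the surface markers that define EPs. Its level was 481 and 475 CPM in WT against 395 and 383 CPM in cKO. The 2 libraries of each group lay close together and the groups were apart. The means were 478 ± 4.42 CPM and 389 ± 8.60 CPM (SD, n = 2 each). This was a log2 fold change of −0.30 with an SE of 0.12 and a 95% interval from −0.57 to −0.025. The unadjusted p of 0.0362 in the edgeR test did not pass adjustment (FDR 0.436). The value stayed between −0.32 and −0.29 when any 1 library was left out. Without cKO replicate 1 its FDR was 0.0380, in a fit that placed 2625 genes under FDR 0.05. Mast cells also express KIT. Markers of mast cells and basophils together summed to 34.6 and 30.2 CPM in WT and 91.6 and 51.2 CPM in cKO. Of the 10 listed, all 7 that were tested had a log2 fold change above 0, among them Cpa3 at 0.97 with an SE of 0.38. The mast cell genes Tpsb2 and Mrgprb1 were at 0 in every library. Cma1, of the same list, had 3 and 1 counts in WT and 0 and 5 in cKO. The part of such cells in the Kit level was not tested.

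The Kit counts fell on 2 transcripts that differ at exon 9, where NM_001122733.1 holds 12 further bases (chr5:75639147-75639158, plus strand, GRCm38). The insert lies in the coding sequence for the stretch of the receptor just outside the membrane. The 2 versions are shown because their fold changes differed in size. Capitals mark the bases of exon 9 found in NM_001122733.1 only, with 40 bases on either side.
Kit NM_001122733.1: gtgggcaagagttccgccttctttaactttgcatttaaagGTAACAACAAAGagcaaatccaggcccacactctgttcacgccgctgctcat
Kit NM_021099.3: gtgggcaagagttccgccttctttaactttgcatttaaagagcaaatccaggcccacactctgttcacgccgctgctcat

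The transcript with the insert, NM_001122733.1, had 2804 and 2485 counts in WT and 1930 and 1901 in cKO. Each cKO library lay below each WT library. For this transcript the log2 fold change was −0.54 with an SE of 0.13, and in the edgeR test over 29581 transcripts its unadjusted p was 0.0187 and its FDR 0.560. The transcript without the insert, NM_021099.3, had 4008 and 4696 counts in WT and 4084 and 4015 in cKO. Scaled to library size these were 287 and 312 CPM against 271 and 262 CPM, so that here too both cKO libraries lay below both WT libraries. Its log2 fold change was −0.17 with an SE of 0.087 (edgeR FDR 1.00). The form with the insert thus made up 41.2% and 34.6% of the Kit counts in WT and 32.1% in each cKO library. The difference between the transcripts was not tested, the WT libraries lay further apart than the nearer WT library lay from cKO, and the split depends on how reads common to both transcripts were assigned. Among all transcripts tested, 0% passed FDR < 0.05 and 6.82% had an unadjusted p < 0.05.

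Csf2ra (chr19:61223957-61228429, minus strand, GRCm38), the α chain of the GM-CSF receptor, was the most variable member among the WT libraries. It was read at 196 and 249 CPM in WT and 197 and 216 CPM in cKO. The cKO libraries fell inside the WT range. Csf2ra had a log2 fold change of −0.11 with an SE of 0.15 and an interval from −0.44 to 0.23 (edgeR FDR 0.833), and the value was 0.065 without WT replicate 2. Of its 14 listed transcripts 8 had a count, and NM_009970.2 held from 85.4% to 87.3% of the counts.

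Csf2rb (chr15:78325752-78353847, plus strand, GRCm38) and Csf2rb2 (chr15:78282507-78305721, minus strand, GRCm38) are neighbouring genes for the common and the IL-3 specific β chains. Their coding sequences were identical at 95.3% of 2629 aligned bases, with a longest identical run of 242 bases. Of all 31-base sequences in Csf2rb transcripts 28.0% also occurred in Csf2rb2, so that part of the reads of either gene could not be told apart. A stretch of coding bases 2265 to 2354 is shown because it carries such near-identity, with capitals at the 2 bases that differ.
Csf2rb: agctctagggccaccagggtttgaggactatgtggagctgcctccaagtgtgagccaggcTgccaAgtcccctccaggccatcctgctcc
Csf2rb2: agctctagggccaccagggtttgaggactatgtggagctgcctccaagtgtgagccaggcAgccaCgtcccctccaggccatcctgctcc

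Csf2rb was read at 175 and 192 CPM in WT and 190 and 192 CPM in cKO. The first WT library was the lowest, and the other 3 lay close together. For Csf2rb the log2 fold change was 0.057 with an SE of 0.12 and an interval from −0.21 to 0.32 (edgeR FDR 0.898). Csf2rb2 was read at 71.3 and 72.2 CPM in WT and 72.2 and 68.4 CPM in cKO, with overlapping groups. Csf2rb2 had a log2 fold change of −0.030 with an SE of 0.12 and an interval from −0.31 to 0.25 (edgeR FDR 0.960). Both signs turned when single libraries were left out, to −0.0077 for Csf2rb without WT replicate 1 and 0.00089 for Csf2rb2 without cKO replicate 2. With both genes taken as 1 feature, as their shared sequence allows, the log2 fold change was 0.033. A rarer Csf2rb transcript, NM_001358854.1, had 0 and 20 counts in WT and 201 and 19 in cKO, a difference carried by cKO replicate 1.

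**Figure D2:**
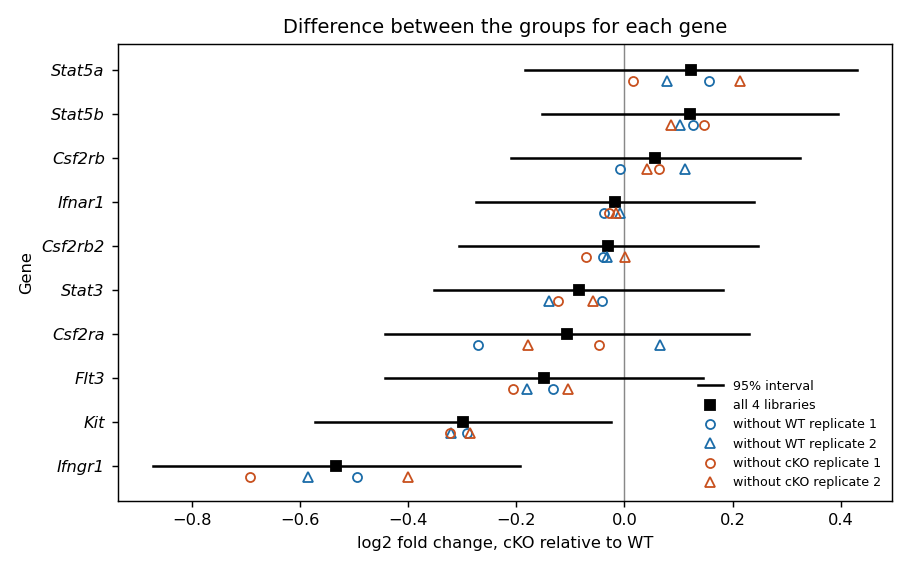
The log2 fold change of cKO relative to WT for each gene (black squares, with 95% intervals from the edgeR fit of all 4 libraries), and the values with 1 library left out (open symbols). Kit and Ifngr1 are the genes whose interval does not reach 0, and Csf2ra, Csf2rb and Csf2rb2 each have a value on the other side of 0.

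Ifngr1 (chr10:19591949-19610229, plus strand, GRCm38), the IFN-γ binding chain, showed the largest difference of the 10 genes. It had 10731 and 10852 counts in WT and 8572 and 7067 in cKO, or 758 and 718 CPM against 563 and 457 CPM. Both cKO libraries lay below both WT libraries, and cKO replicate 2 was the lowest of all. The means were 738 ± 28.5 CPM and 510 ± 74.7 CPM (SD, n = 2 each). This was a log2 fold change of −0.53 with an SE of 0.15, a fold of 0.691 with a 95% interval from 0.546 to 0.874. The unadjusted p in the edgeR quasi-likelihood test was 0.00696 and the FDR 0.319, so the difference did not pass over all genes. The value was −0.40 without cKO replicate 2 and −0.69 without cKO replicate 1, fits in which a single cKO library remains. Ifngr1 is listed with 1 transcript and shared no 31-base sequence with another gene.

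Among the related receptor chains, Ifngr2, the signalling partner of IFNGR1, had a log2 fold change of 0.0063 with an SE of 0.12, at 82.6 and 74.6 CPM in WT and 81.7 and 76.2 CPM in cKO. Ifnar1 (chr16:91485238-91507441, plus strand, GRCm38) lay between 149 and 154 CPM in every library, the narrowest span among the 10 genes in proportion to its level, with a log2 fold change of −0.017, an SE of 0.11 and an interval from −0.27 to 0.24 (edgeR FDR 0.973). Its partner Ifnar2 had a log2 fold change of −0.010. Ifnlr1, the receptor for type III interferons, was the lowest of the 3 partner genes at −0.66 with an SE of 0.30 (edgeR FDR 0.490), and stood at −1.14 without cKO replicate 1 and −0.31 without cKO replicate 2.

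Stat3 (chr11:100885098-100939540, minus strand, GRCm38) was read at 283 and 266 CPM in WT and 265 and 253 CPM in cKO. The groups did not overlap, but WT replicate 2 and cKO replicate 1 differed by less than the libraries within each group did. Stat3 had a log2 fold change of −0.085 with an SE of 0.11 and an interval from −0.35 to 0.18 (edgeR FDR 0.831). Of the places where Stat3 transcripts differ, 2 are shown, and the 50 bases of exon 23 alter the end of the protein. They are shown because the log2 fold changes of the transcripts differed in sign. For the forms with a positive value the groups overlapped in CPM. Capitals mark 3 bases at the end of exon 21 (chr11:100893074-100893076, minus strand, GRCm38) in the first pair, and 50 bases of exon 23 (chr11:100889541-100889590, minus strand, GRCm38) in the second pair, whose absence gives the shorter STAT3β.
Stat3 NM_213659.3 at exon 21: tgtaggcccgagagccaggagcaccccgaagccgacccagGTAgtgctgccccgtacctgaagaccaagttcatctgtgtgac
Stat3 NM_213660.3 at exon 21: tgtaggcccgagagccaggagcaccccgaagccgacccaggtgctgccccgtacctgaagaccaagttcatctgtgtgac
Stat3 NM_213659.3 at exon 23: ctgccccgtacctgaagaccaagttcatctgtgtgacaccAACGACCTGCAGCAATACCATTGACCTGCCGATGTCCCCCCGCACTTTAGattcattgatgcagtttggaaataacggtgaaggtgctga
Stat3 NM_011486.5 at exon 23: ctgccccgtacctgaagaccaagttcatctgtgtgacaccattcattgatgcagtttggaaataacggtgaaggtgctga

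NM_213659.3, the form with both stretches, had 2991 and 3114 counts in WT and 2770 and 2815 in cKO. Its log2 fold change was −0.20 with an SE of 0.072 (edgeR unadjusted p 0.0624, FDR 0.823). NM_213660.3, without the 3 bases, had 580 and 449 counts in WT and 701 and 599 in cKO (log2 fold change 0.26, SE 0.24). Scaled to library size these were 41.5 and 29.9 CPM against 46.5 and 39.1 CPM, so that the groups overlapped. NM_011486.5, the STAT3β transcript, had 432 and 362 counts in WT and 532 and 473 in cKO (log2 fold change 0.27, SE 0.21). In CPM these were 30.88 and 24.07 against 35.29 and 30.85, with cKO replicate 2 just under WT replicate 1. STAT3β counts were 10.8% and 8.99% of all Stat3 counts in WT and 13.2% and 12.1% in cKO, shares that did not overlap. How many of all transcripts have shares that do not overlap was not computed. The Stat3 transcripts found in the reference also differ outside these stretches, with a longest of 6042 bases beside a count-weighted mean of 4455.6 bases. The shares depend on how reads common to the transcripts were assigned, and none of the 3 transcripts passed FDR < 0.05.

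**Figure D3:**
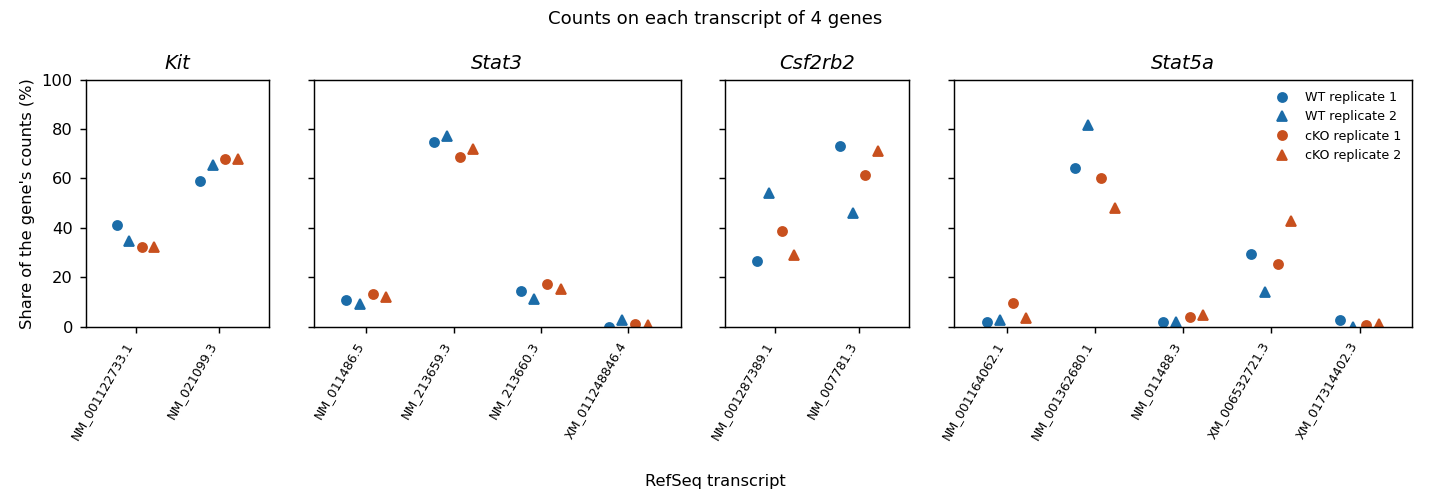
Share of each gene's counts on its RefSeq transcripts (y axis, percent; x axis, transcript) for Kit, Stat3, Csf2rb2 and Stat5a in the 4 libraries. The longer Kit transcript holds 41.2% and 34.6% in WT and 32.1% in both cKO libraries, and the main Stat5a transcript, NM_001362680.1, ranges from 48.2% to 81.8%.

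Stat5a (chr11:100859351-100885169, plus strand, GRCm38) and Stat5b (chr11:100780731-100850724, minus strand, GRCm38) encode the STATs used by GM-CSF, IL-3 and KIT, and lie side by side with Stat3. Their coding sequences were identical at 90.9% of 2344 aligned bases, and 21.1% of the 31-base sequences of Stat5a occurred in Stat5b. Coding bases 835 to 924 are shown as part of that near-identity, with capitals at the 1 base that differs.
Stat5a: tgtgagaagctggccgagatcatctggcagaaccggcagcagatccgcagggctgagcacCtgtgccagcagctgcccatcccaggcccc
Stat5b: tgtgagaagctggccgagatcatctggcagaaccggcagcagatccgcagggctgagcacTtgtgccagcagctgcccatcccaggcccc

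Stat5a was read at 57.1 and 54.5 CPM in WT and 65.1 and 56.5 CPM in cKO, where cKO replicate 2 fell inside the WT range. Its log2 fold change was 0.12 with an SE of 0.13 and an interval from −0.18 to 0.43 (edgeR FDR 0.777), and it was 0.015 without cKO replicate 1 and 0.21 without cKO replicate 2. Stat5b was read at 68.3 and 67.7 CPM in WT and 72.7 and 75.4 CPM in cKO. It was the only one of the 10 genes with both cKO libraries above both WT libraries, where 22.8% of all genes tested were so. Its log2 fold change was 0.12 with an SE of 0.12 and an interval from −0.15 to 0.40 (edgeR FDR 0.749). The share of Stat5a counts on its main transcript, NM_001362680.1, ran from 48.2% to 81.8%, with the highest and the second highest value in WT. No member transcript was at 0 in both libraries of a group and counted in both of the other, where 4.23% of the transcripts that reached 20 counts in each library of a group were so.

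Levels were compared between genes per length, as CPM per kilobase of transcript. Ifngr1 ranked first, at 216 to 359 CPM per kilobase over the 4 libraries, followed by Flt3 at 168 to 196. Csf2ra lay at 106 to 135, Kit at 73.1 to 92.0 and Stat3 at 56.7 to 63.5 CPM per kilobase. These 5 ranges did not overlap. Csf2rb (36.7 to 40.2) and Ifnar1 (38.1 to 39.3) did not differ beyond their spread, nor did Csf2rb2 (16.2 to 17.1) and Stat5a (14.6 to 17.4), or Stat5a and Stat5b (13.3 to 14.8 CPM per kilobase). Flt3, the receptor for the injected ligand, ranked second of the 10 genes per length, and the GM-CSF α chain stood above both β chain genes per length. Within WT, Ifngr1 was 349 ± 13.5 and Flt3 194 ± 3.52 CPM per kilobase (SD, n = 2 each). Part of the transcripts had no length in the reference used, and the matched ones held 71.1% of the Stat5a counts and at least 86.3% of those of the other members.

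Around the 10 genes, 138 genes of related lists were tested, and 0 passed FDR < 0.05 in the edgeR quasi-likelihood test. At an unadjusted p < 0.05 the count was 45, with 32 higher and 13 lower in cKO, where 10.7% of all genes tested passed, 6.95% higher and 3.77% lower. The cell cycle list gave 20 of the 32, and its median of 1.28 was 0.38 without cKO replicate 2. The DESeq2 Wald test placed 8 of the 138 genes under FDR 0.05, the edgeR likelihood ratio test 12 and limma-voom 0. Of all 12393 genes these tests placed 137, 234 and 13. The values of the genes named next are therefore given as measured and are not changes that passed the test.

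Among 6 further tested receptors for myeloid growth factors, 2 were higher and 1 lower at an unadjusted p < 0.05 in edgeR, with a median log2 fold change of −0.15. That median ran from −0.24 to 0.022 when any 1 library was left out, over the 6 or 7 genes that passed the filter in each fit. Csf3r, the G-CSF receptor of neutrophils, stood at 0.72 with an SE of 0.18 and lay beside the higher neutrophil markers. Lifr, a receptor chain for LIF, stood at −0.88 with an SE of 0.18, at 31.5 and 25.5 CPM in WT and 16.9 and 14.0 CPM in cKO. Both groups of Csf3r and Lifr libraries were apart, and neither gene passed adjustment (edgeR FDR 0.307 each). Of 22 receptors for other cytokines, 4 were higher and 3 lower at that threshold, with a median of 0.021. Those named by the rule were Il2rb (1.04, SE 0.33), Il21r (0.79, SE 0.19) and Il2rg (0.61, SE 0.15), the last being the chain common to many lymphocyte cytokine receptors, and Il13ra1 (−0.49, SE 0.19). Il13ra1 was −0.25 without cKO replicate 2 and −0.80 without cKO replicate 1.

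Ligands of these receptors were hardly read in the sorted cells. Csf2, Il3, Il5, Il34, Ifnb1 and Thpo were at 0 in every library and so were not detectable at this depth. Kitl, Csf3 and Ifng had at most 8 counts in a library. Flt3l, the ligand of FLT3, was read at 12.0 and 13.6 CPM in WT and 11.5 and 8.47 CPM in cKO, with a log2 fold change of −0.36 and an SE of 0.22 (edgeR FDR 0.614), and Csf1 stood at 0.48 with an SE of 0.39. With 1 library left out, Flt3l ran from −0.60 to −0.16 and Csf1 from 0.14 to 0.89.

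The JAK kinases, the other STATs and Irf9 had 8 of 9 log2 fold changes below 0, where 6048 of all 12393 genes tested were so. Their median was −0.16, with 2 lower and 0 higher at an unadjusted p < 0.05 in edgeR. Stat2, which carries the type I interferon signal, was read at 436 and 465 CPM in WT and 327 and 296 CPM in cKO (log2 fold change −0.53, SE 0.12, edgeR FDR 0.307). Irf9, its DNA-binding partner, had a log2 fold change of −0.33 with an SE of 0.14, and Stat4 stood at 0.46 with an SE of 0.27. With 1 library left out, Irf9 ran from −0.49 to −0.20 and Stat4 from 0.16 to 0.82. Of 14 interferon target genes, 6 were lower and 0 higher at an unadjusted p < 0.05 in edgeR. Of all genes tested, 3.77% were lower and 6.95% higher at that threshold. The median of the list was −0.28, and 11 values lay below 0, where 6048 of all 12393 genes tested did. This list shares Stat2 and Irf9 with the one before it, and both are counted as lower in each list. Irf7 had a log2 fold change of −0.44 with an SE of 0.14 (edgeR FDR 0.360), while Ifit3 stood at 0.26 with an SE of 0.29 and ran from −0.078 to 0.68 when any 1 library was left out. The median of the interferon targets ran from −0.31 to −0.19 when any 1 library was left out.

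**Figure D4:**
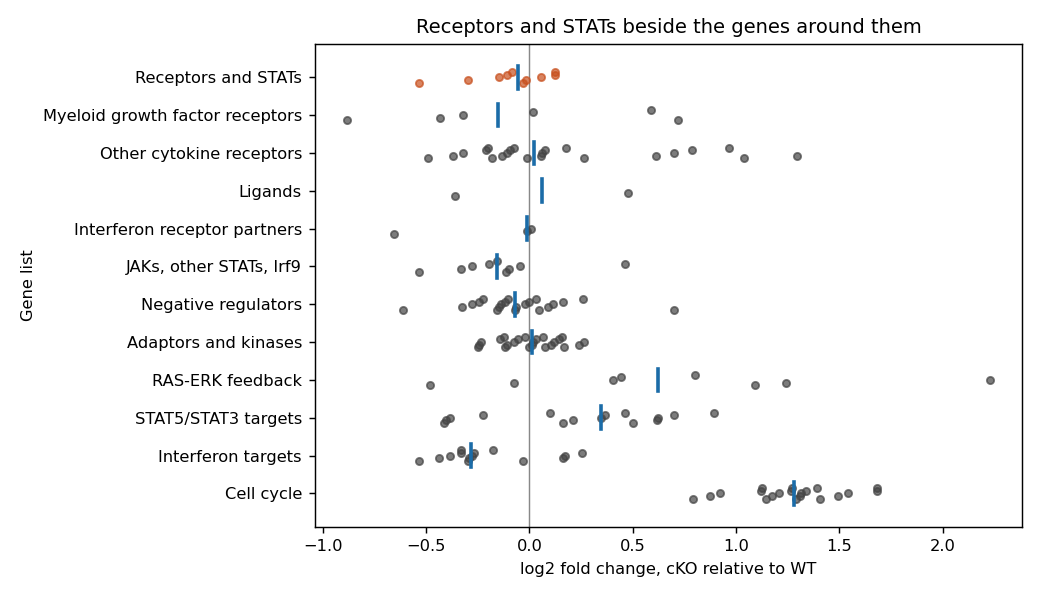
The log2 fold change of cKO relative to WT (x axis) for the receptors and STATs (orange) and the tested genes of 11 related lists (grey), with a blue bar at each median. The 10 genes lie between −0.53 and 0.12, while the 20 cell cycle genes lie between 0.79 and 1.68.

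Negative regulators of these receptors had a median log2 fold change of −0.071 over 21 tested genes, with 1 lower at an unadjusted p < 0.05. That gene was Cblb, a ubiquitin ligase, at −0.28 with an SE of 0.12. Socs2, a target and inhibitor of STAT5, stood at 0.70 with an SE of 0.33, Socs1 at −0.61 with an SE of 0.35 and Socs7 at −0.33 with an SE of 0.14. With 1 library left out, Socs2 ran from 0.34 to 1.03, Socs1 from −0.89 to −0.29 and Socs7 from −0.47 to −0.21. Of 23 adaptors and kinases downstream of FLT3 and KIT, 0 passed an unadjusted p < 0.05 and the median was 0.012. Their values spanned from −0.25 for Gab2 to 0.26 for Mtor, with Pik3r1 at −0.24. Mtor was 0.081 without cKO replicate 2.

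Feedback genes of the RAS-ERK arm, which are switched on by active receptor kinases, had a median of 0.62 over 8 tested genes, with 3 higher at an unadjusted p < 0.05. Etv5 was read at 0.778 and 1.12 CPM in WT, 1.05 CPM in cKO replicate 1 and 7.95 CPM in cKO replicate 2. Its log2 fold change of 2.23 (SE 0.85) was 0.13 without cKO replicate 2. Dusp6, an ERK phosphatase, went from 1.24 (SE 0.41) to 0.43 without that library, and Egr1 had a value of −0.48 (SE 0.31) that went to −0.036. Without cKO replicate 2 the median of the list was 0.13, over the 9 genes that passed the filter in that fit. That library is also the one with the highest cell cycle sum.

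Known STAT5 and STAT3 targets had a median of 0.35 over 15 tested genes, with 3 higher and 2 lower at an unadjusted p < 0.05. That median was 0.18 without cKO replicate 2, 0.22 without cKO replicate 1 and 0.23 without WT replicate 2. Ccnd2 (0.89, SE 0.20) and Ccnd3 (0.46, SE 0.14) encode D-type cyclins that are also part of the cell cycle, and Junb stood at −0.41 with an SE of 0.18. Without cKO replicate 2, Ccnd3 was 0.28 and Junb −0.18. All 20 cell cycle genes were higher at an unadjusted p < 0.05, with a median of 1.28, and 0 passed adjustment. The highest was Mcm2 at 1.68 (SE 0.40) and the lowest Ccnb2 at 0.79 (SE 0.29), with Mcm5 at 1.54 (SE 0.34). The median was 0.38 without cKO replicate 2 and 1.85 without cKO replicate 1. Flt3, Kit, Stat3 and Ifngr1 were each lowest in cKO replicate 2, the library with 2520 CPM of cell cycle genes. They were next lowest in cKO replicate 1, with 954 CPM. Within WT the cell cycle sums lay close together, at 745 CPM in replicate 1 and 717 CPM in replicate 2. WT replicate 1 had the higher Flt3, Kit, Stat3 and Ifngr1. The part of cell cycle content in their levels was not tested.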

How the data were processed

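Total RNA of sorted CD24+ EPs was sequenced from CORALL RNA-seq V2 libraries. The authors deposited whole-number estimated counts per RefSeq transcript, without normalization. The submitters' processing notes name fastp, STAR, Salmon, GATK and the build GRCm39, without roles or versions. Counts were summed per gene symbol. The 2 WT and 2 cKO libraries were compared with edgeR 4.0.16 (R 4.3.3, filterByExpr, TMM, quasi-likelihood test, no block) and Benjamini–Hochberg adjustment over 12393 genes, as tested on simulated data. Each SE was derived from the fold change and the F statistic, and intervals are 95% from the t distribution. The biological coefficient of variation was 15.2%. At 14561583 to 15193831 counts per library, the counting error (one over the square root of the count) of the 10 members in their lowest library was 1.03% to 3.52%, and it covers counting only. CPM use TMM effective library sizes.

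The members and gene lists were chosen with earlier results of these data known. Genes named from the lists were those with the highest and the lowest log2 fold change and the 2 smallest p values at a mean of at least 20 counts. One such gene is not reported here. Coordinates, exons, lengths and transcript sequences come from GENCODE and RefSeq on GRCm38, not the build of the files. Lengths were weighted by the counts of matched transcripts. Alternatives were DESeq2 1.42.0, limma 3.58.1, 2 further normalizations, 2 filters, a replicate block, single transcripts, Csf2rb summed with Csf2rb2, the longest transcript as length, and leaving out each library.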

Additional observations from a re-analysis of the deposited data

How the results depend on the processing

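With 2 libraries a group, of 122 alternative values of the members' log2 fold changes 115 kept their direction and their side of FDR 0.05, 4 changed sign and 3 came to lie under FDR 0.05. The changes of sign were Csf2ra at 0.065 (without WT replicate 2), Csf2rb at −0.0077 (without WT replicate 1), and Csf2rb2 at 0.00089 (without cKO replicate 2) and 0.033 (summed with Csf2rb). Over the 4 fits with 1 library left out, Csf2ra ran from −0.27 to 0.065, Csf2rb from −0.0077 to 0.11 and Csf2rb2 from −0.071 to 0.00089. Members under FDR 0.05 numbered 0 in the quasi-likelihood test and 1 (Ifngr1) in the DESeq2 Wald test, and 0 to 2 when 1 library was left out, with Kit and Ifngr1 called without cKO replicate 1. Flt3 ran from −0.21 to −0.10 over 12 alternatives, with FDRs from 0.186 to 1.00. Over all genes the quasi-likelihood count of 13 was 137 in the DESeq2 Wald test, 234 in the likelihood ratio test, and 1 to 2625 when 1 library was left out. For the related lists the count of 0 was 8, 12, and 0 to 59. The cause was not tested. Leaving out a library leaves 1 in its group, which is then assumed to vary like the other group.

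The replicate numbers are shared by the groups, but the labels do not say that same-numbered libraries are paired. Same-numbered deviations from the group means correlated at −0.031 across genes. This value cannot show whether a subset of genes shares a batch. With the number as a replicate block, 504 genes, 30 genes of the related lists and 0 members were under FDR 0.05, and the members at an unadjusted p < 0.05 went from 2 to 1.

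With the longest transcript as the length, the WT level was 45.4 in place of 61.6 CPM per kilobase for Stat3, 15.1 in place of 17.0 for Csf2rb2, 14.4 in place of 14.9 for Stat5a and 13.1 in place of 13.4 for Stat5b, and the order of all 10 genes was the same.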
